A study of Mus musculus with 62 samples.

Results

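The 10 genes described here encode RNA-binding proteins of the RBFOX, neuronal ELAVL, NOVA and CELF families. They were chosen by family name among the genes of the count table, with earlier results of these data known. All 10 named genes (Rbfox1, Rbfox2, Rbfox3, Elavl2, Elavl3, Elavl4, Nova1, Nova2, Celf2 and Celf4) were present among its 11121 genes. All were tested in each comparison, so no low-count filter removed any of them.

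Messenger RNA of 62 brain samples was counted by BRB-seq, a method that barcodes each RNA sample during reverse transcription from the poly(A) tail and reads only the 3′ ends of transcripts. The samples came from wild-type male mice of the C57BL/6J strain at 15 weeks of age. The mCRS groups had gone through multimodal chronic restraint stress, a repeated daily restraint under changing light, noise, motion and predator odor, and the CTR groups were unstressed. The groups were the prefrontal cortex (PFC) of CTR mice (n = 15), the PFC of mCRS mice (n = 15), the nucleus accumbens (NAc) of CTR mice (n = 16) and the NAc of mCRS mice (n = 16). Both regions are mixed tissue and hold glia and vessels as well as neurons. Both regions were taken from the same animals, but which PFC and NAc libraries share a mouse is not given in the sources used here, so the libraries were treated as independent.

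RNA-binding proteins of these families shape the messenger RNAs of neurons. RBFOX proteins bind the sequence UGCAUG and steer the choice of alternative exons. Neuronal ELAVL proteins, also called Hu proteins, bind U-rich and AU-rich stretches and act on the stability, splicing and translation of their targets. NOVA proteins bind clusters of YCAY and CELF proteins bind GU-rich stretches, and both families regulate splicing in neurons. Rbfox3 is the gene of NeuN, the nuclear antigen used to label mature neurons. Elavl4 encodes HuD, which stabilizes transcripts of neurite growth and synaptic plasticity.

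Because the assay read only 3′ ends, the counts of a gene come from the stretch before its poly(A) site. The annotated ends of the genes that the results turn on are shown for that reason, with the last 30 bases of the 3′ UTR in transcript direction (GENCODE vM21, GRCm38, minus strand in each case) and the poly(A) signal in capitals.
Elavl2, chr4:91250763-91250792: acatcAATAAAcaaagttgaagggaaagaa
Elavl3, chr9:22015005-22015034: tgccagaaAATAAAaagttcagaatcttaa
Elavl4, chr4:110203737-110203766: cagacAATAAAtgaaagtgtgtagaatgaa
Rbfox2, chr15:77078990-77079019: actgtttttaAATAAAagagagaaacacca
Rbfox3, chr11:118489762-118489791: aagattAATAAAgatttctttcttcaaacc
Rbfox3, an alternative end, chr11:118491994-118492023: tatcgtttctATTAAAgtttactaaccatc
These ends differ between the family members. Windows of 70 bases, the length of the sequenced read, were taken from the last 500 bases of each member's protein-coding transcripts and looked up in the transcripts of all other genes. No window of 9 members was found in another gene. For Nova1, 20.6% of the windows also lay in Gm33869, a gene that overlaps it on the same strand, so the counts of Nova1 carry that uncertainty.

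The same annotation was searched for the RBFOX binding sequence, written TGCATG in DNA letters, on the transcript strand of the longest 3′ UTR of each gene. It was found in 5 of the 10 members (50%), namely Elavl3, Elavl4, Nova1, Nova2 and Celf2, and in 39.1% of 11098 counted genes. The members' UTRs were longer, with a median of 3054 bases against 1328.5 bases. The matches in Elavl4 and Elavl3 are shown because these genes had the smallest p of the members between the regions in mCRS mice. The searched letters are in capitals, and both genes lie on the minus strand of GRCm38.
Elavl4, chr4:110204245-110204274: gaacccactaagTGCATGtagacaggactg
Elavl3, chr9:22018127-22018156: ccctccccacccTGCATGggatggcttagg
Nova1 held 6 such sequences, Nova2 held 3 and Celf2 held 2. The Rbfox genes had none in the UTRs searched. These are matches of sequence only: binding was not measured, and no link between them and the level of a gene was tested.

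Library totals ran from 945286 to 4857359 counts. The median total was 2398072 (CTR) and 1966931 counts (mCRS) in the PFC and 2884276.5 and 2615250.5 counts in the NAc. The share of genes detected was lower in PFC mCRS (82.3% ± 6.22, SD, n = 15) than in PFC CTR (87.1% ± 4.42, SD, n = 15), a difference given here because it bears on the stress results below. The summed level of 6 cortical excitatory neuron markers was 811 to 1498 CPM, counts scaled to a common library total after normalization by TMM (trimmed mean of M values), in PFC CTR and 674.8 to 1404 in PFC mCRS, against 38.1 to 287.6 in NAc CTR and 33.9 to 514.7 in NAc mCRS. The labels of the regions matched these markers. The highest NAc value was that of NAc mCRS 8 (514.7 CPM, against a group median of 128.8 CPM), below the lowest PFC library. NAc mCRS 8 was left out only among the single libraries dropped below. By other markers, 2 NAc libraries stood apart. NAc CTR 7 had the lowest summed level of 9 striatal projection neuron markers (510.5 CPM, against a group median of 4973 CPM) and the highest of the 2 counted hypothalamic markers (2369 CPM). NAc mCRS 10 had the highest level of the 2 counted choroid plexus markers (21590 CPM, against a group median of 53.6 CPM). Values without both are therefore given beside the main results that hold NAc libraries.

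Elavl4 (ENSMUSG00000028546, chromosome 4, 110203722 to 110351909, minus strand) was the only member that passed the test in any comparison, and it was higher in the PFC than in the NAc. In CTR mice its level ran from 65.5 CPM through a median of 266 to 506.5 CPM in the PFC, and from 30.4 through 104 to 314.5 CPM in the NAc. In mCRS mice it ran from 102.7 through a median of 331.7 to 493.2 CPM in the PFC, and from 1.69 through 124 to 214.7 CPM in the NAc. The groups overlapped in both. In each treatment, 14 of 15 PFC libraries lay above the NAc median, and 6 (CTR) and 13 (mCRS) of the 15 lay above the highest NAc library. The lowest NAc value belonged to NAc mCRS 9, with 2 counts of the gene.

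The log2 fold change of Elavl4, PFC against NAc, was 1.30 in CTR mice (standard error 0.26, 95% confidence interval 0.79 to 1.82, a 2.47-fold difference, edgeR quasi-likelihood test with Benjamini-Hochberg adjustment over all genes tested, FDR = 0.000292). In mCRS mice, which share no library with the former, it was 1.40 (standard error 0.29, interval 0.82 to 1.97, a 2.63-fold difference, edgeR, FDR = 0.000489). In CTR mice 6.32% of 9932 tested genes passed an FDR of 0.05, and 4.23% passed it with a higher level in the PFC. In mCRS mice the shares were 6.31% and 4.23% of 9452 genes. Genes that passed in both with a higher level in the PFC made up 2.73% of the 9235 genes tested in both. With 1 member of 10 called, the share of members was 10% against these backgrounds. Without NAc CTR 7 and NAc mCRS 10, the log2 fold changes of Elavl4 were 1.36 and 1.44 (edgeR, FDR = 0.000224 and 0.000456). When single libraries were dropped they stayed between 1.22 and 1.49, and the highest FDR was 0.00125.

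The marker lists moved with the region as well. Of 7 general neuron markers, 3 were higher in the PFC by the same edgeR test in CTR mice and 3 in mCRS mice, and none was lower. In each treatment 6 of the 7 log2 fold changes were positive and 1 was negative. The negative one had an unadjusted p under 0.05 in CTR mice only (edgeR). The summed level of the 7 markers was 6189 to 9039 CPM in PFC CTR and 3960 to 5762 CPM in NAc CTR. Snap25 (median 2357 CPM in PFC CTR) and Syt1 (1833 CPM) weighed most in that sum. All 9 striatal projection neuron markers were lower in the PFC in both treatments, and 4 of 6 cortical excitatory neuron markers were higher in both. Of 6 oligodendrocyte markers, 5 were lower in the PFC in each treatment. The part of these cell types in the difference in Elavl4 was not tested, and in bulk samples fewer cells of a type and less RNA per cell cannot be told apart.

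**Figure D1:**
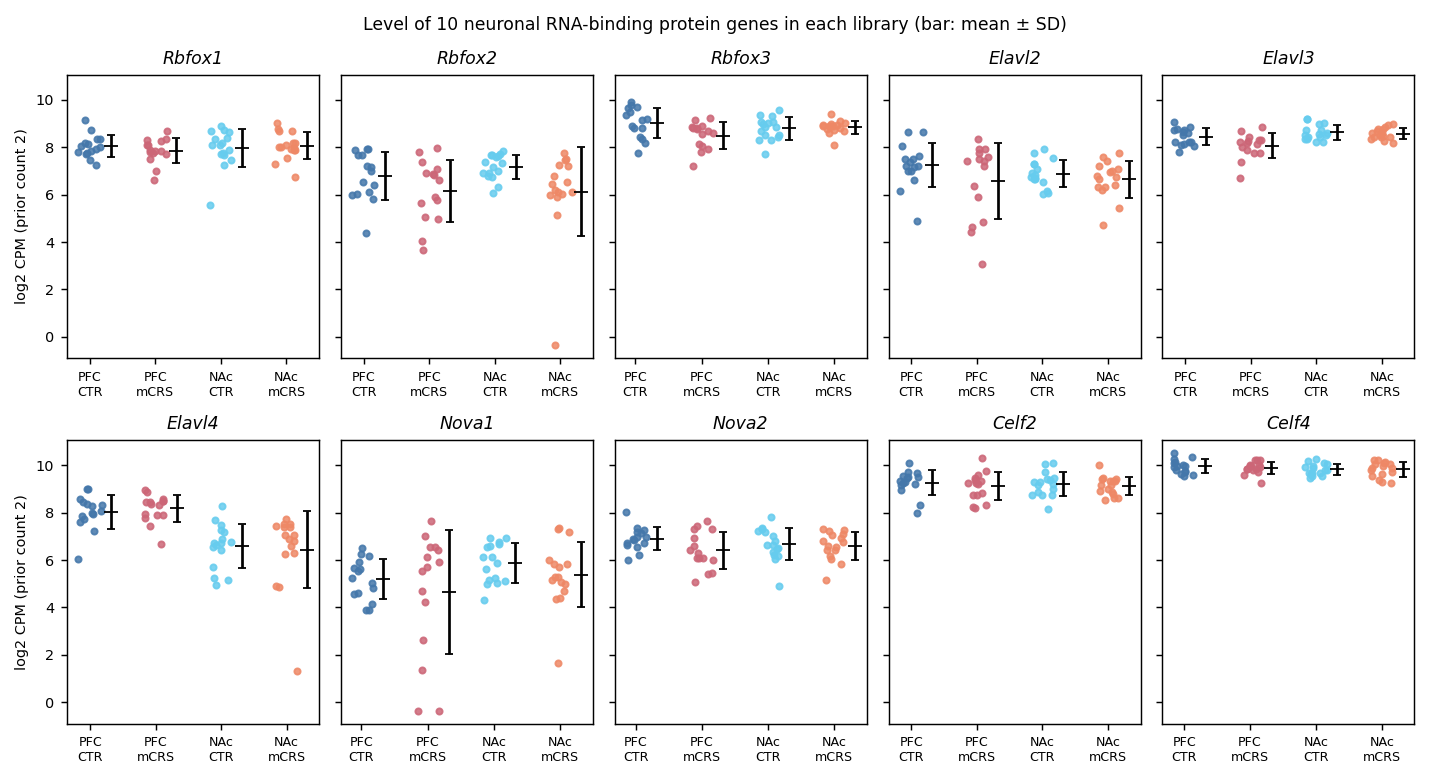
Level of each of the 10 genes as log2 CPM (vertical axis, prior count of 2) in every library, by group (horizontal axis: PFC CTR and PFC mCRS, n = 15 each, NAc CTR and NAc mCRS, n = 16 each); points are libraries and the bars show the mean ± SD. Elavl4 sits higher in both PFC groups (mean 8.03 and 8.18) than in both NAc groups (6.61 and 6.44), and the points below 0 are the libraries with no count of Rbfox2 or Nova1.

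Elavl3 (ENSMUSG00000003410, chromosome 9, 22015005 to 22052023) encodes HuC, a protein of postmitotic neurons, and its contrast ran the other way. In CTR mice its level ran from 224.1 CPM through 363.4 to 533.7 CPM in the PFC, and from 295.4 through 373.2 to 591.9 CPM in the NAc. In mCRS mice it ran from 104.8 through 286.9 to 469.8 CPM in the PFC, and from 291.6 through 375.3 to 502.1 CPM in the NAc. Of the 15 PFC mCRS libraries, 13 lay below the NAc mCRS median and 8 lay below the lowest NAc mCRS library. The log2 fold change, PFC against NAc, was -0.20 in CTR mice (interval -0.49 to 0.09) and -0.45 in mCRS mice (standard error 0.16, interval -0.77 to -0.12, edgeR, unadjusted p = 0.00802, FDR = 0.101). This contrast depended on the scaling: in mCRS mice it was -0.51 under relative log expression scaling (edgeR, FDR = 0.0493) and -0.51 under DESeq2 (FDR = 0.00674). The median log2 fold change over all genes also moved, from -0.03 in the main fit to -0.09 in each of these 2 fits. The part of that shift in the value of Elavl3 was not tested. With single libraries left out, the FDR of Elavl3 in mCRS mice ran from 0.055 to 0.185 (edgeR). Without NAc CTR 7 and NAc mCRS 10, its log2 fold change was -0.45 (edgeR, FDR = 0.116).

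Elavl2 (ENSMUSG00000008489, chromosome 4, 91250763 to 91400785) encodes HuB. Its medians were 146.6 CPM (CTR) and 170.2 CPM (mCRS) in the PFC, and 109.0 and 108.5 CPM in the NAc. PFC mCRS had the widest spread of the 4 groups on the log2 CPM scale (SD 1.60), with values from 7.69 to 324.7 CPM. The log2 fold change, PFC against NAc, was 0.48 in CTR mice (interval -0.03 to 0.99) and 0.33 in mCRS mice (interval -0.36 to 1.01), and neither passed the test (edgeR, FDR = 0.379 and 0.784).

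The share of each library's counts of these 3 Elavl genes that Elavl4 contributed needs no scaling by library size. It comes from the same counts as the contrast above, and it also rises where Elavl3 falls. In CTR mice the median share was 17.0% in the NAc and 31.96% in the PFC. In mCRS mice it was 18.9% in the NAc and 40.8% in the PFC. The median share of Elavl3 was 67.0% and 46.9% in the NAc and PFC of CTR mice, and 61.96% and 32.6% in those of mCRS mice. The share of Elavl2 lay between 17.8% and 21.8% in all 4 groups by median. These are shares of counts, which depend on where reads fall in each gene, and were not tested.

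**Figure D2:**
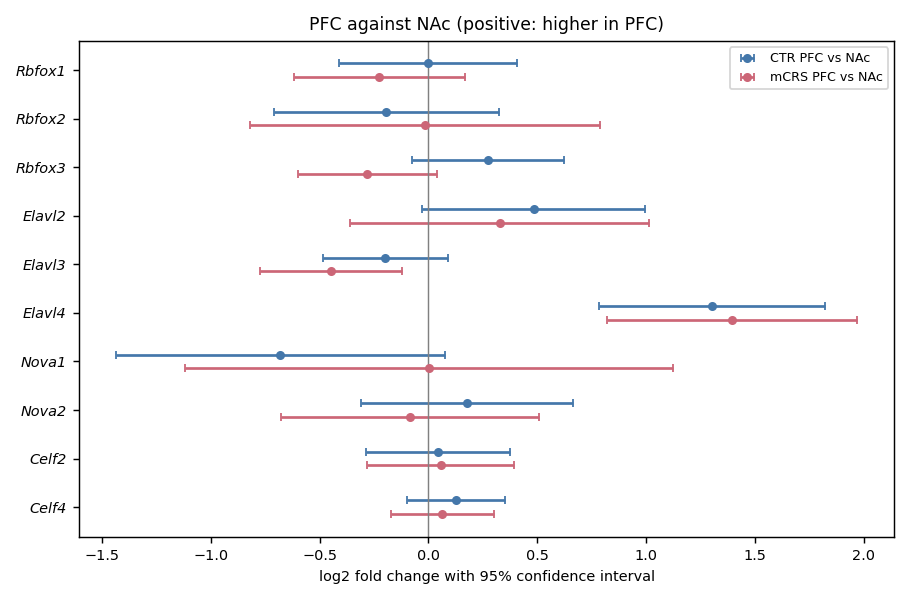
Log2 fold change of each of the 10 genes, PFC against NAc (horizontal axis, positive values higher in the PFC), in CTR mice (blue) and mCRS mice (red); points are edgeR estimates and the bars their 95% confidence intervals. The intervals of Elavl4 lie above 0 in both (0.79 to 1.82 and 0.82 to 1.97), and only the mCRS interval of Elavl3 lies below 0.

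The libraries of each group carry numbers, and those numbered 8 or below were compared with those numbered above 8, a split chosen with earlier results known. What the numbers stand for is not given in the sources used here. For Elavl4 the mean log2 CPM was higher in the PFC in each part: by 1.10 and 1.74 in CTR mice and by 1.46 and 2.0017 in mCRS mice. With PFC mCRS 8 counted in the later part, the mCRS values were 1.43 and 2.06. These are descriptions of libraries already used above, with no test.

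Stress was compared next, within each region. Rbfox3 (ENSMUSG00000025576, chromosome 11, 118489762 to 118911597, minus strand) had the smallest unadjusted p of the members in the PFC and did not pass the adjusted test. Its level ran from 217.5 CPM through a median of 571.4 to 957.5 CPM in PFC CTR, and from 148.0 through 407.6 to 595.7 CPM in PFC mCRS. In the NAc it ran from 212.2 through 466.3 to 765.8 CPM in CTR and from 269.8 through 475.1 to 676.1 CPM in mCRS mice. The PFC groups overlapped, but 14 of 15 mCRS libraries lay below the CTR median. The NAc groups lay over one another.

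The log2 fold change of Rbfox3, mCRS against CTR, was -0.54 in the PFC (standard error 0.19, interval -0.92 to -0.16, edgeR, unadjusted p = 0.00626, FDR = 0.945) and 0.01 in the NAc (interval -0.27 to 0.29, FDR = 1). In the PFC no gene (0%) of the 8916 tested passed an FDR of 0.05 with edgeR, 3.5% had an unadjusted p under 0.05 (312 genes), and DESeq2 called 5. Of the 10 members, 1 (10%) had an unadjusted p under 0.05. In the NAc 0.00986% of 10141 genes passed the FDR, which is 1 gene, and 2.04% had an unadjusted p under 0.05. The interaction of region and stress for Rbfox3, the difference between both log2 fold changes, was -0.55 (interval -1.03 to -0.08, edgeR, unadjusted p = 0.0227, FDR = 1). Of 11025 genes tested for the interaction, 0.00907% passed the FDR and 3.09% had an unadjusted p under 0.05, and Rbfox3 was the only member below 0.05. Without NAc CTR 7 and NAc mCRS 10, the interaction was -0.52 (edgeR, unadjusted p = 0.0320, FDR = 1) and the NAc value -0.04.

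The PFC value of Rbfox3 moved with the share of genes detected, with the share of counts from the mitochondrial genome (mtDNA) and with the library numbers. Adjusted for the percentage of detected genes, the log2 fold change was -0.29 (edgeR, unadjusted p = 0.145, FDR = 0.999). The mtDNA share was 12.88% ± 3.004 (SD, n = 15) in PFC CTR and 16.04% ± 3.645 (SD, n = 15) in PFC mCRS, and adjusted for it the log2 fold change was -0.15 (edgeR, unadjusted p = 0.398, FDR = 1). With the mtDNA genes left out of the counts it was -0.54 (edgeR, unadjusted p = 0.00563, FDR = 0.909). When single libraries were dropped it stayed between -0.602 and -0.465 (edgeR, unadjusted p from 0.00196 to 0.0177, lowest FDR = 0.566). The paper reports that mtDNA genes rose with mCRS in this region, so the mtDNA share is itself a reported outcome of stress. Adjusting for that share can therefore also remove a part of a stress effect on Rbfox3. The adjusted fit cannot tell such a part from a technical one. The part of either share in the value of Rbfox3 was not tested beyond these fits. Among libraries numbered 8 or below, CTR mice averaged 9.45 and mCRS mice 8.49 on the log2 CPM scale, a difference of -0.96 (n = 8 each). Among those numbered above 8, the means were 8.55 and 8.51, a difference of -0.04 (n = 7 each). With PFC mCRS 8 counted in the later part, the differences were -0.998 and -0.01. In the CTR group the libraries numbered 8 or below were the higher ones, and the mCRS libraries had nearly the same mean in both parts. The mtDNA share was 11.09% ± 2.364 (SD, n = 8) in the PFC CTR libraries numbered 8 or below and 14.92% ± 2.326 (SD, n = 7) in those above 8, and it ran from 10.2% to 22.9% and from 12.1% to 19.8% in those parts of PFC mCRS. In the NAc the differences in Rbfox3 were 0.07 and 0.04. These parts were compared as a description, with no test.

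Marker lists were read beside Rbfox3 for the same contrast. Of 7 general neuron markers, none passed the FDR and none had an unadjusted p under 0.05 by edgeR, with 2 positive and 5 negative log2 fold changes and a median of -0.04. Their summed level ran from 6189 to 9039 CPM in PFC CTR and from 6026 to 8137 CPM in PFC mCRS. In cortical excitatory neuron markers, 1 of 6 log2 fold changes was positive and 5 were negative, with a median of -0.28 and none below an unadjusted p of 0.05. The part of cell types in the value of Rbfox3 was not tested.

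**Figure D3:**
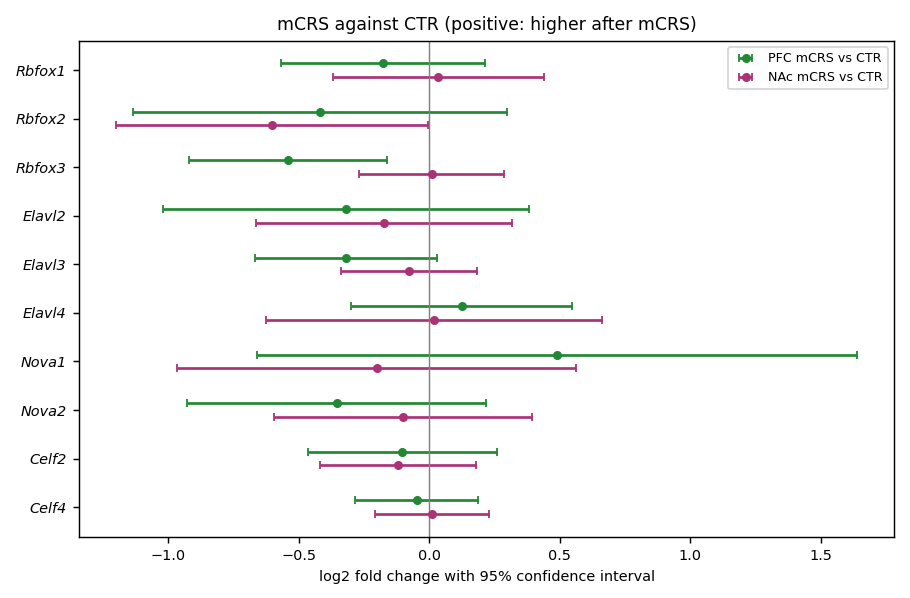
Log2 fold change of each of the 10 genes, mCRS against CTR (horizontal axis, positive values higher after mCRS), in the PFC (green) and the NAc (purple); points are edgeR estimates and the bars their 95% confidence intervals. In the PFC only the interval of Rbfox3 lies off 0 (-0.92 to -0.16), in the NAc only that of Rbfox2 (-1.20 to -0.01), and no estimate passed the adjusted test.

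Rbfox1 (ENSMUSG00000008658, chromosome 16, 5885355 to 7411526, plus strand) spans 1526172 bases, the longest of the 10 genes, and encodes a splicing factor of brain, heart and muscle. Its medians were 257.2 CPM (CTR) and 227.6 CPM (mCRS) in the PFC, and 274.6 and 260.6 CPM in the NAc. The lowest value of all libraries, 45.9 CPM, belonged to NAc CTR 7, the library whose striatal markers were lowest. No log2 fold change of Rbfox1 lay further from 0 than -0.23 (PFC against NAc in mCRS mice, interval -0.62 to 0.17).

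Rbfox2 (ENSMUSG00000033565, chromosome 15, 77078990 to 77307004, minus strand) is expressed in many tissues besides the brain. In the NAc its level ran from 66.6 CPM through 151.4 to 229.0 CPM in CTR and from 0 through 79.6 to 215.5 CPM in mCRS mice. The value of 0 was NAc mCRS 3, where a count of 0 allows up to 2.27 CPM. Of the 16 mCRS libraries, 12 lay below the CTR median and 5 below the lowest CTR library. The log2 fold change was -0.60 (standard error 0.30, interval -1.20 to -0.01, edgeR, unadjusted p = 0.0478, FDR = 1), and 1 of 10 members had an unadjusted p under 0.05 in the NAc, against 2.04% of all genes tested. The unadjusted p was 0.0565 without NAc CTR 7 and NAc mCRS 10, and ran from 0.0204 to 0.0778 when single libraries were dropped. In the PFC the medians were 126.5 CPM in CTR and 97.5 CPM in mCRS mice, with a log2 fold change of -0.42 (interval -1.14 to 0.30).

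By family share, Rbfox3 gave the largest part of the counts of the Rbfox genes in each group, with medians from 53.0% to 58.8%. Rbfox1 gave 28.6% to 33.8% and Rbfox2 10.7% to 17.1% by median. As with the Elavl genes, these are shares of counts, which depend on where reads fall in each gene, and were not tested.

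Nova1 and Nova2 encode splicing factors first known as antigens of a neurological autoimmune syndrome. Nova1 (ENSMUSG00000021047, chromosome 12, 46694517 to 46818929) had the fewest counts of the 10 genes, 9886 over all libraries. Its medians were 37.5 CPM (CTR) and 51.6 CPM (mCRS) in the PFC, and 63.3 and 38.2 CPM in the NAc. Of the 62 libraries, 2 had no count, PFC mCRS 3 and PFC mCRS 15, which allows up to 2.52 and 1.61 CPM. The PFC mCRS group therefore spread from 0 to 199.6 CPM, and the log2 fold change against CTR was 0.49 with an interval from -0.66 to 1.64. In the CTR region contrast it was -0.68 (interval -1.44 to 0.07, edgeR, unadjusted p = 0.0764, FDR = 0.419).

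Nova2 (ENSMUSG00000030411, chromosome 7, 18925888 to 18965319) is the NOVA gene of the cerebral cortex. Its medians were 116.8 CPM (CTR) and 78.4 CPM (mCRS) in the PFC, and 98.5 and 102.0 CPM in the NAc. The log2 fold change of mCRS against CTR was -0.35 in the PFC (interval -0.93 to 0.22) and -0.10 in the NAc (interval -0.59 to 0.39). Of the 15 PFC mCRS libraries, 10 lay below the PFC CTR median and 3 below its lowest library, so the groups overlapped widely.

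The CELF genes gave the most counts. Celf4 (ENSMUSG00000024268, chromosome 18, 25477632 to 25754157), which binds the 3′ UTRs of many synaptic transcripts, had medians of 999.4 CPM (CTR) and 960.1 CPM (mCRS) in the PFC, and 890.0 and 949.6 CPM in the NAc. Its log2 fold change under stress was -0.05 in the PFC (interval -0.28 to 0.19) and 0.01 in the NAc (interval -0.21 to 0.23). Between the regions it was 0.13 in CTR mice (interval -0.10 to 0.35) and 0.06 in mCRS mice (interval -0.17 to 0.30). A difference of the size of the contrast in Elavl4 lies outside all 4 intervals.

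Celf2 (ENSMUSG00000002107, chromosome 2, 6539694 to 7509563) is a broadly expressed regulator of splicing and stability. Its medians were 655.0 CPM (CTR) and 610.8 CPM (mCRS) in the PFC, and 614.3 and 574.8 CPM in the NAc. The log2 fold changes were -0.10 (PFC, interval -0.46 to 0.26) and -0.12 (NAc, interval -0.42 to 0.18) for stress, and 0.04 (CTR, interval -0.29 to 0.37) and 0.06 (mCRS, interval -0.28 to 0.39) between the regions.

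Set side by side, the 10 members had a median log2 fold change under stress of -0.25 in the PFC, with 2 positive and 8 negative, against -0.01 over all genes tested. The share of genes detected was lower in PFC mCRS (82.3%) than in PFC CTR (87.1%), and its part in this median was not tested. In the NAc the median of the members was -0.09, with 4 positive and 6 negative, against -0.01. Between the regions the medians were 0.09 in CTR mice and -0.01 in mCRS mice, against -0.02 and -0.03 over all genes. For the interaction the median was -0.11, against -0.02. Apart from Rbfox3 in the PFC and Rbfox2 in the NAc, each stress estimate had an interval that held 0.

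Spread between libraries of a group differed among the members. Their median coefficient of variation within a group, averaged over the groups, was 39.9%, against 54.5% for 4445 genes with a mean log2 CPM of at least 5. Those genes were not matched to the members by level. By the median over the groups, the steadiest member was Celf4 (18.9%) and the most variable was Nova1 (72.0%). Celf4 also had the most counts of the members (153350 over all libraries) and Nova1 the fewest.

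The members hardly followed one another across libraries. After the mean of each group was removed, the Pearson correlation of log2 CPM over the 62 libraries ran from -0.28 to 0.51 among the 45 pairs of members, with a median of 0.04, against 0.01 over all pairs of the 4445 genes. The highest was Rbfox3 with Elavl3 and the lowest Elavl2 with Elavl3. These libraries were made and scaled together, so the values are descriptions. With the share of genes detected, the members' correlation across libraries ran from -0.07 (Rbfox1) to 0.40 (Nova1). It was 0.36 for Rbfox2, 0.30 for Rbfox3 and -0.01 for Elavl4.

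**Figure D4:**
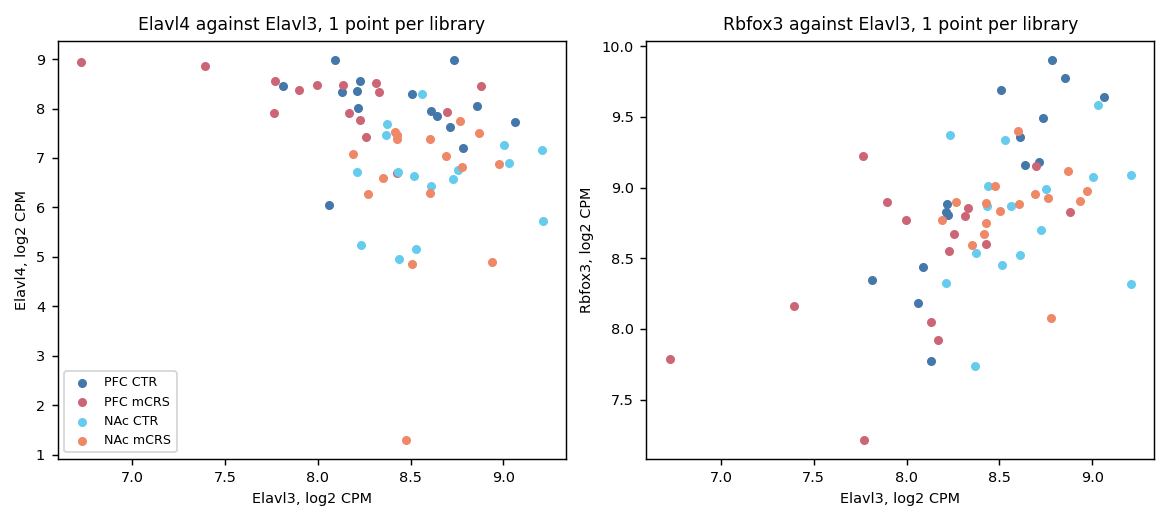
Log2 CPM of Elavl4 (left) and Rbfox3 (right) against log2 CPM of Elavl3 in each of the 62 libraries, colored by group. On the left most PFC libraries lie above most NAc libraries, and on the right Rbfox3 and Elavl3 rise together, the closest of the 45 pairs after group means were removed (Pearson r = 0.51).

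By the same measure, the 3 genes whose levels most resembled Elavl4 were Exoc5 (r = 0.55), Khdrbs3 (0.54) and Ppm1e (0.53). For Rbfox3 they included Sh2d5 (0.56) and Dlgap3 (0.53), for Rbfox1 they were Camk2a (0.53), Crym (0.52) and Phactr1 (0.52), and for Rbfox2 Epb41l3 (0.60), Ina (0.60) and Hnrnpab (0.59). Elavl3 was most like Syt11 (0.64), Phyhip (0.57) and Pnmal2 (0.54), and Elavl2 like Akap6 (0.48), Nr2c2 (0.45) and Rbm25 (0.41). Nova1 was most like Nol7 (0.57), Mpdu1 (0.55) and Limch1 (0.54), and Nova2 like Hopx (0.64), Abcb8 (0.53) and Ilf2 (0.46). For Celf2 they included Ash1l (0.62) and Slc1a2 (0.55), and for Celf4 they were Nrxn2 (0.54), Map1b (0.50) and Praf2 (0.50). Each r is over 62 libraries and is among the highest of 4444 genes, so a value of this size is a choice among many.

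Other RNA-binding proteins of the same and related families were read for comparison: 30 genes, of which 29 were counted and Mbnl3 was not. In CTR mice 29 were tested between the regions, and 1 was higher and 2 were lower in the PFC. In mCRS mice 28 were tested, and 2 were higher and 1 was lower. Over all genes, 6.32% (CTR) and 6.31% (mCRS) passed in either direction. Without NAc CTR 7 and NAc mCRS 10 the numbers higher and lower were again 1 and 2 in CTR mice and 2 and 1 in mCRS mice. Khdrbs3, which encodes the splicing factor SLM2, was higher in the PFC in both, from a median of 67.2 CPM in NAc CTR to 269.4 in PFC CTR and from 86.0 in NAc mCRS to 316.9 in PFC mCRS. Its log2 fold changes were 1.55 (standard error 0.27, edgeR, FDR = 4.55e-05) and 1.88 (standard error 0.36, edgeR, FDR = 0.000151). Srrm2, a scaffold of nuclear speckles, was lower in both, with log2 fold changes of -0.62 (standard error 0.15, edgeR, FDR = 0.00413) and -0.71 (standard error 0.20, FDR = 0.0172). Without NAc CTR 7 and NAc mCRS 10, the values were 1.48 and 1.81 for Khdrbs3 and -0.64 and -0.76 for Srrm2. Under stress 27 genes were tested in the PFC and 29 in the NAc, and none passed the FDR by edgeR. In the PFC the 2 smallest p belonged to Ptbp2, a splicing repressor of developing neurons (log2 fold change 0.64, edgeR, unadjusted p = 0.0360, FDR = 1), and Celf1 (-0.49, unadjusted p = 0.0374, FDR = 1). In the NAc they were Cpeb3 (0.66, edgeR, unadjusted p = 0.118) and Ptbp2 (-0.53, unadjusted p = 0.128). For the interaction they were Ptbp2 (1.15, edgeR, unadjusted p = 0.0161, FDR = 1) and Celf6 (1.51, unadjusted p = 0.0771).

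Known target transcripts of these proteins made up a further list of 18 genes, all counted and 17 tested in each comparison. Between the regions, 4 were higher and 1 was lower in the PFC in CTR mice, and 6 were higher and none was lower in mCRS mice, against 6.32% and 6.31% of all genes that passed in either direction. Without NAc CTR 7 and NAc mCRS 10, the counts were 5 higher and 1 lower in CTR mice and 5 higher in mCRS mice. Snap25, a synaptic vesicle fusion protein, was higher in both, with log2 fold changes of 0.96 and 0.89 (standard error 0.09 and 0.10, edgeR, FDR = 1.04e-11 and 2.76e-09). Camk2a, a kinase of excitatory synapses, was higher by 1.09 and 0.66 (edgeR, FDR = 7.44e-08 and 0.00132). Bdnf, a neurotrophin, was higher by 2.59 in CTR mice (edgeR, FDR = 0.000974) and by 5.10 in mCRS mice (FDR = 3.05e-06). In PFC mCRS its median was 93.8 CPM, but 1 library, PFC mCRS 9, held 6022 CPM, and without it the mCRS contrast was 2.91 (edgeR, FDR = 0.00545). Snap25 is also among the neuron markers, and the levels of the list were not tied to those of any member by a test.

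Under stress no target passed the FDR by edgeR in the PFC or the NAc, and 3 in the PFC and 1 in the NAc had an unadjusted p under 0.05, against 3.5% and 2.04% of all genes tested. In the PFC the smallest p was that of Bdnf (log2 fold change 2.28, edgeR, unadjusted p = 0.000215, FDR = 0.475). The value of Bdnf rested on PFC mCRS 9 and was 0.05 without it (edgeR, unadjusted p = 0.906). In the NAc the 2 smallest were those of Scn8a, a sodium channel (-0.44, edgeR, unadjusted p = 0.0306, FDR = 1), and Dab1 (-0.46, unadjusted p = 0.107). For the interaction they were Bdnf (2.49, edgeR, unadjusted p = 0.00909, and 0.26 without PFC mCRS 9) and Camk2a (-0.43, unadjusted p = 0.0403).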

How the data were processed

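The authors mapped the BRB-seq reads with STAR to GRCm38 and deposited read counts per gene (HTSeq 0.9.1 per the processing notes, without molecular identifiers), and 2 PFC samples had been removed for poor quality. Floors for a count of 0 therefore cover counting error only, while intervals of fold changes include the spread between libraries. The counts were tested with edgeR 4.0.16 (R 4.3.3) by the quasi-likelihood test, with TMM scaling, edgeR's default filter on low counts by group, and Benjamini-Hochberg adjustment over all genes (FDR under 0.05), separately for stress within each region, for region within each treatment, and for their interaction over all 62 libraries. CPM were scaled by TMM-normalized library totals and log2 CPM used a prior count of 2. DESeq2 1.42.0, other scaling and filters, covariates, thinned counts and left-out libraries were alternatives. Each library of a region came from a separate animal per the study's methods, and animals gave both regions. The members, lists and tests were chosen with earlier results of these data known. Named genes were all members, up to 3 genes per list and direction that passed in both region contrasts, the 2 smallest p per list under stress, and the 3 genes most like each member. Some genes these rules name are not reported here. The procedure was tested on simulated data. Annotation and sequences came from GENCODE vM21 (GRCm38).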

Additional observations from a re-analysis of the deposited data

How the results depend on the processing

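The calls of Elavl4 between the regions, and the absence of a called member under stress, held under every alternative run. Elavl3 in mCRS mice passed the FDR under relative log expression scaling and DESeq2, and not under the others. The number of genes with an unadjusted p under 0.05 in the PFC stress contrast was 312 and moved to 184 when adjusted for the percentage of detected genes and 541 with all 62 libraries in one fit, and in the NAc it moved from 207 to 338 with DESeq2. Genes past the FDR in that PFC contrast went from 0 to 5 with DESeq2, 5 with all 62 libraries fitted together and 2 without the mtDNA genes. There was 1 with no filter on low counts and 1 with the library number as a block. Dropping single libraries moved that number to at most 2, without PFC CTR 14, and for the interaction from 1 to 7 without PFC mCRS 2. Leaving out NAc CTR 7 and NAc mCRS 10, or PFC mCRS 9 for Bdnf, was chosen after seeing the data. The adjustment for mtDNA share was added in the same way.

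What samples with the same number have in common is not given in the sources used here. The median correlation of their deviations from the group means ran from -0.01 to 0.01 over the group pairs. The correlation was over 0.1 in 1 of 15, 0 of 16, 0 of 15 and 0 of 15 pairs. No pair known to share a mouse is at hand, so these values cannot tell whether samples of the same number share a mouse. With the number as a replicate block, 610 genes passed the FDR between the regions in CTR mice (628 without the block) and 588 in mCRS mice (596), 415 (312) and 250 (207) had an unadjusted p under 0.05 under stress in the PFC and the NAc, and 364 (341) for the interaction. A sample correlated best with the sample of its own number in 0 to 3 of the 15 or 16 pairs. The block turned the sign of Nova1 in the PFC (-0.0695) and between the regions in mCRS mice (-0.428), Elavl4 (-0.0278) and Celf4 (-0.00331) in the NAc, Rbfox1 between the regions in CTR mice (0.0346), Elavl2 in mCRS mice (-0.00134) and Celf2 for the interaction (-0.0195).

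Other changes of sign were all in log2 fold changes that passed no test, and their cause was not tested. In the PFC, Celf4 was 0.0496 when adjusted for the percentage of detected genes. In the NAc under stress, that adjustment gave -0.0205 for Rbfox1 and -0.027 for Elavl4, thinned counts gave -0.0267 for Rbfox3 and -0.00722 for Celf4, and leaving out NAc CTR 7 and NAc mCRS 10 gave -0.117 for Rbfox1 and -0.0375 for Rbfox3. With single libraries left out, values there ran from -0.0414 to 0.104 for Rbfox1, -0.0314 to 0.0729 for Rbfox3, -0.0566 to 0.194 for Elavl4 and -0.0179 to 0.0476 for Celf4. Between the regions in CTR mice, Rbfox1 was 0.00714 without mtDNA genes, 0.00467 with no filter on low counts, 0.00831 with at least 10 counts in at least 50% of libraries, 0.00597 with numbers above 8 as a covariate and -0.115 to 0.0687 with single libraries left out. Celf2 was -0.0028 without NAc CTR 7 and NAc mCRS 10 and -0.0294 to 0.118 with single libraries left out. In mCRS mice, Nova1 was -0.0506 with DESeq2, -0.0503 with relative log expression scaling, -0.00238 with no filter, -0.0657 with numbers above 8, -0.011 with thinned counts, -0.00219 with all 62 libraries, -0.0874 without NAc CTR 7 and NAc mCRS 10 and -0.247 to 0.211 with single libraries left out. Celf2 was -0.00506 with DESeq2, -0.00523 with relative log expression scaling and -0.0685 to 0.16 with single libraries left out. Rbfox2 was 0.281 when adjusted for detected genes and -0.187 to 0.0981 with single libraries left out, and Nova2 was 0.0615 with that adjustment and 0.0322 with thinned counts. For the interaction, single libraries left out gave -0.00517 to 0.293 for Rbfox2, -0.0842 to 0.175 for Elavl4 and -0.117 to 0.0803 for Celf2.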
